A study of Mus musculus with 20 samples.

Results

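The circadian clock genes Arntl, Per1, Per2, Per3, Cry1, Cry2, Nr1d1, Nr1d2, Dbp and Tef were taken by their symbols from the bone marrow and kidney count tables. All 10 were found among the 55486 genes of each table, and all 10 passed the filter on low counts in both tissues. They were followed under oxaliplatin and vehicle as a check on the time of collection and on clock phase. The mice were C57BL/6, male and female, 10 weeks old when treatment began, with no engineered allele named. The vehicle groups were injected intraperitoneally with 5% dextrose, and the oxaliplatin groups with 10 mg/kg of oxaliplatin, a platinum drug that crosslinks DNA, in the same vehicle, over 8 weeks. Each tissue had 5 vehicle and 5 oxaliplatin libraries, labelled as biological replicates, which makes 20 in all. The methods give a light-dark cycle of equal phases and state that marrow was spun from tibia and femur, 6 days having passed since the final injection. The hour at which each mouse was killed, the sex of each mouse and the collection of the kidneys are not given in the sources used here.

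Total counts per library ran from 30660153 to 41140527 in bone marrow and from 24393007 to 30925430 in kidney. Levels are given as CPM, counts scaled to library size by the TMM method of edgeR. A count of 3, taken as the floor, was worth 0.0668 to 0.0975 CPM in marrow and 0.0900 to 0.130 CPM in kidney, which covers counting error only. The lowest count of any clock gene was 35, for Arntl in an oxaliplatin kidney. The tissue labels matched their markers: the summed level of 5 proximal tubule genes was 11999 to 17865 CPM in kidney and 1.98 to 5.51 CPM in marrow, and that of 6 neutrophil genes was 7433 to 19287 CPM in marrow and 0.224 to 1.37 CPM in kidney.

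The mammalian clock is a feedback loop of transcription that runs in nearly every cell. ARNTL (BMAL1) pairs with CLOCK or NPAS2 on E-box sequences and drives Per, Cry, Nr1d and Dbp, and the PER and CRY proteins then block that pair. The nuclear receptors REV-ERB alpha and beta, encoded by Nr1d1 and Nr1d2, repress Arntl through elements that ROR receptors also bind, so that Arntl RNA normally peaks opposite to Nr1d1 and Dbp. In kidney the loop times salt and water transport, and in marrow it times the release of blood cells.

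Nr1d1 was the only clock gene that passed the test in both tissues. Under oxaliplatin its level rose by 2.36-fold in marrow and 2.61-fold in kidney, with no overlap between the groups. Cry1, which encodes a repressor of the loop, fell in kidney by 1.16 on the log2 scale and did not pass the test in marrow, and Cry1 was the only 1 of the 10 whose response differed between the tissues by the test of that difference. Per1, a repressor that also responds to hormones and acute signals, rose in kidney, but that call was lost when any of 8 of the 10 mice was left out. The log2 fold change of Per1 was 0.83 in both tissues, and in marrow it passed the test only under some alternative settings. Arntl fell in marrow by 0.50 on the log2 scale, short of the 1.5-fold threshold. In kidney, Arntl, Dbp and Nr1d1 differed among vehicle mice by 3.92-fold to 5.55-fold, more than nearly all genes of that tissue.

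Windows of 300 bases around the annotated starts, from RefSeq on GRCm38.p6, were found for 9 of the 10 genes (12 windows in all), and Per2 had no entry. Each begins 250 bases upstream of the start. The 4 shown belong to Arntl, which the REV-ERB proteins repress, and to the 3 genes called in kidney. Arntl and Per1 have 2 windows each, of which the one with a match is shown, and the other window of each held no match. Each is printed 5′ to 3′ on the strand of its gene, with matches in capitals. The letters searched on both strands were CACGTG (E-box), CACGTT (a variant E-box, read AACGTG on the other strand), TTATGTAA, TTATGCAA and TTACGTAA (D-boxes, bound by DBP and TEF), and TAGGTCA (the core bound by REV-ERB and ROR receptors). CACGTG and CACGTT share letters but no match overlapped another in these windows.

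Arntl: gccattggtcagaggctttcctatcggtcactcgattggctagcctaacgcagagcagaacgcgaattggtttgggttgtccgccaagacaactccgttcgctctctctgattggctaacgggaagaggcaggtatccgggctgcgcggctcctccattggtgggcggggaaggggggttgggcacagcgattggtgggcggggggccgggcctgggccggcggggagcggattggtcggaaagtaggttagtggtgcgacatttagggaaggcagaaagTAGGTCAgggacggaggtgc
Nr1d1: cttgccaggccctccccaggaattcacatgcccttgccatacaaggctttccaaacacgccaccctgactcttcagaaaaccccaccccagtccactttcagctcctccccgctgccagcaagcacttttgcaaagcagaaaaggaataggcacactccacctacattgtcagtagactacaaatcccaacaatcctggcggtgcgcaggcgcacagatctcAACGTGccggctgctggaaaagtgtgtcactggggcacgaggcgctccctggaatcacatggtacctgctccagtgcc
Cry1: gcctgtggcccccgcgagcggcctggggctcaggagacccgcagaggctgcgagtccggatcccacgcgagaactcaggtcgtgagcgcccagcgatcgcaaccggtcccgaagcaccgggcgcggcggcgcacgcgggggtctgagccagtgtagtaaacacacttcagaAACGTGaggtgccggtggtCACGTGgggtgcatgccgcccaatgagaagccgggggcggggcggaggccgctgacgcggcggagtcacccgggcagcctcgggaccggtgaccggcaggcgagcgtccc
Per1: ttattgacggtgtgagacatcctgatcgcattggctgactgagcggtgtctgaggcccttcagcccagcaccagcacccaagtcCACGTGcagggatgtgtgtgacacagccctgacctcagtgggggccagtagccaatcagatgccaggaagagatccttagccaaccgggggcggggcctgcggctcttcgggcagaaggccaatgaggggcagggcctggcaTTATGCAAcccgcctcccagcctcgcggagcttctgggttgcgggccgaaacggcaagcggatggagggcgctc

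The Arntl window lay at chr7:113207261-113207560 on the plus strand, Nr1d1 at chr11:98775328-98775627 on the minus strand, Cry1 at chr10:85185005-85185304 on the minus strand and Per1 at chr11:69098699-69098998 on the plus strand. Counting the annotated start as 0, Arntl held TAGGTCA at 30 to 36, inside the transcribed part. Nr1d1 held the variant E-box at -28 to -23, on the opposite strand. Cry1 held the E-box at -60 to -55 and the variant at -79 to -74, also on the opposite strand, and Per1 held the E-box at -166 to -161 and the D-box TTATGCAA at -24 to -17. Among the other genes, a match to a searched sequence was found for Per3, Cry2 and Tef and none for Nr1d2 or Dbp. Of all 32851 windows of this length, 7.15% held CACGTG, 4.68% CACGTT, 0.938% TTATGTAA, 0.743% TTATGCAA, 0.119% TTACGTAA and 2.61% TAGGTCA. A match is a run of letters and was not tested as a binding site.

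**Figure D1:**
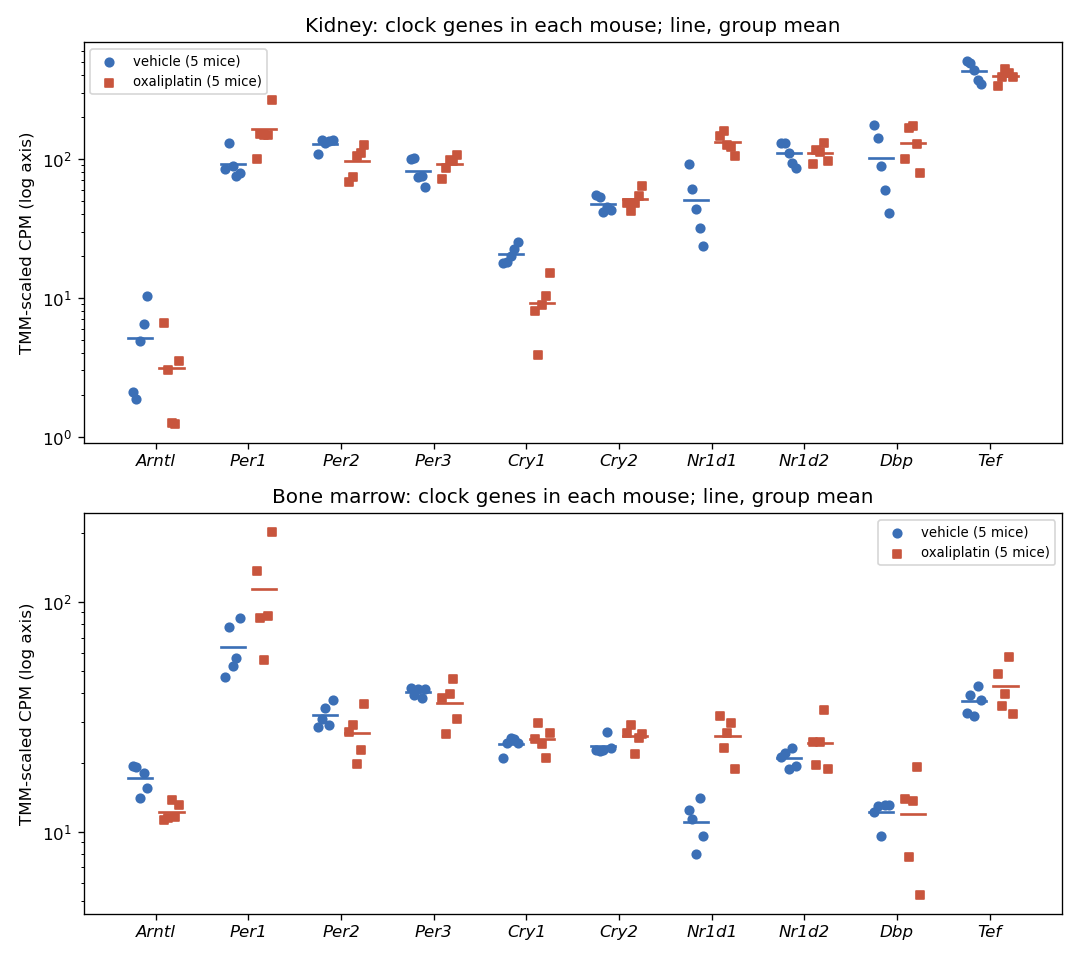
Level of the 10 clock genes in each mouse of kidney (top) and bone marrow (bottom), as CPM on a log axis, with 5 vehicle and 5 oxaliplatin mice per tissue and a line at each group mean. The Nr1d1 groups do not overlap in either tissue, the Cry1 groups do not overlap in kidney, and the vehicle kidneys spread widely for Arntl, Nr1d1 and Dbp.

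In kidney, 3 of the 10 clock genes were called, at an adjusted p under 0.05 by edgeR's quasi-likelihood test and a change beyond 1.5-fold, against 11.5% of the 19293 genes tested. Of these, 2 were higher (7.68% of all genes were called higher) and 1 was lower (3.81%). The groups did not overlap for 2 of the 10, Nr1d1 (higher, as for 9.69% of all genes) and Cry1 (lower, as for 11%), against 20.7% in either direction. In bone marrow, 1 of the 10 was called, against 23.3% of 22363 genes (11.6% higher and 11.8% lower), and the groups did not overlap for 2, Nr1d1 (higher, as for 11.4% of all genes) and Arntl (lower, as for 13.5%), against 24.9% in either direction. Without the fold threshold 3 of the 10 passed in kidney, against 29.4% of all genes. The median log2 fold change of the 10 was 0.06 in kidney, where that of all genes was 0.02, and 0.11 in marrow, where that of all genes was -0.04.

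Nr1d1 encodes REV-ERB alpha, a heme-binding repressor. In kidney, Nr1d1 measured 92.6, 60.4, 43.8, 31.6 and 23.7 CPM in vehicle mice 1 to 5 and 147, 158, 126, 122 and 105 CPM in oxaliplatin mice 1 to 5. Every treated kidney lay above every vehicle kidney, and the vehicle kidneys were the more spread of the groups. The log2 fold change was 1.38 ± 0.36 (SE, 95% confidence interval 0.57 to 2.20, edgeR adjusted p = 0.0196). Without vehicle mouse 3 the log2 fold change was 1.34 and the edgeR adjusted p was 0.0515, just over the threshold. In marrow, Nr1d1 measured 12.4, 11.4, 7.97, 14.0 and 9.59 CPM with vehicle and 31.8, 23.2, 26.8, 29.9 and 18.8 CPM with oxaliplatin. These groups were also apart, with mouse 5 the lowest of the treated group, and the log2 fold change was 1.24 ± 0.17 (SE, interval 0.86 to 1.62, edgeR adjusted p = 0.00013). The interaction between tissue and treatment for Nr1d1 was 0.09 on the log2 scale (interval -0.71 to 0.88, edgeR adjusted p = 0.904), which leaves a wide range for a difference between the tissues.

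Nr1d2, which encodes REV-ERB beta and overlaps with Nr1d1 in function, gave another picture. Its kidney level was 129, 130.0, 109.8, 92.7 and 86.1 CPM with vehicle and 92.6, 116, 113, 130.3 and 96.4 CPM with oxaliplatin. The groups covered the same range, and the log2 fold change was 0.00044 (interval -0.27 to 0.27, edgeR adjusted p = 0.998). In marrow Nr1d2 ran from 18.7 to 23.2 CPM with vehicle and from 18.8 to 33.9 CPM with oxaliplatin, a log2 fold change of 0.22 (interval -0.11 to 0.54, edgeR adjusted p = 0.305).

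A stretch of 263 exonic bases of Nr1d1, 8.55% of its exon length, lies opposite exons of Thra, the thyroid hormone receptor alpha gene on the other strand, and the use of strand in counting is not stated. Thra measured 44.2 ± 2.04 CPM (SD, n = 5) in vehicle marrow and 60.4 ± 4.42 CPM with oxaliplatin. Its log2 fold change was 0.45 in marrow (edgeR adjusted p = 0.000725) and 0.28 in kidney (edgeR adjusted p = 0.0127), both smaller than those of Nr1d1. Dbp shares 539 bases, 18% of its exon length, with Sphk2 in the same way, and the shared parts of Cry2, Tef and Arntl with antisense genes were 4.67%, 2.45% and 0.439%.

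Cry1 encodes the stronger of the cryptochrome repressors. In kidney it measured 17.7, 18.2, 19.9, 22.4 and 25.4 CPM in vehicle mice 1 to 5 and 8.04, 3.91, 8.84, 10.4 and 15.1 CPM in oxaliplatin mice 1 to 5. The highest treated kidney, mouse 5, lay below the lowest vehicle kidney, and treated mouse 2 was the lowest of the 10. The log2 fold change was -1.16 ± 0.29 (SE, interval -1.82 to -0.50, edgeR adjusted p = 0.0149). In marrow Cry1 measured 20.9, 24.4, 25.5, 25.3 and 24.3 CPM with vehicle and 25.2, 29.8, 24.2, 21.0 and 26.9 CPM with oxaliplatin. Those groups overlapped throughout, with a log2 fold change of 0.08 (interval -0.16 to 0.31, edgeR adjusted p = 0.633). The interaction was -1.30 ± 0.29 on the log2 scale (SE, interval -1.89 to -0.71, edgeR adjusted p = 0.00138), and it was called for 1 of the 10 clock genes, against 30.1% of the 24321 genes tested.

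Cry2, the partner repressor, ran from 41.6 to 54.5 CPM in vehicle kidney and from 42.4 to 64.3 CPM with oxaliplatin, a log2 fold change of 0.11 (interval -0.12 to 0.34, edgeR adjusted p = 0.461). In marrow it ran from 22.5 to 27.1 CPM and from 21.7 to 29.2 CPM, with 0.14 (interval -0.08 to 0.35, edgeR adjusted p = 0.34). Both intervals lie inside 1.5-fold.

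**Figure D2:**
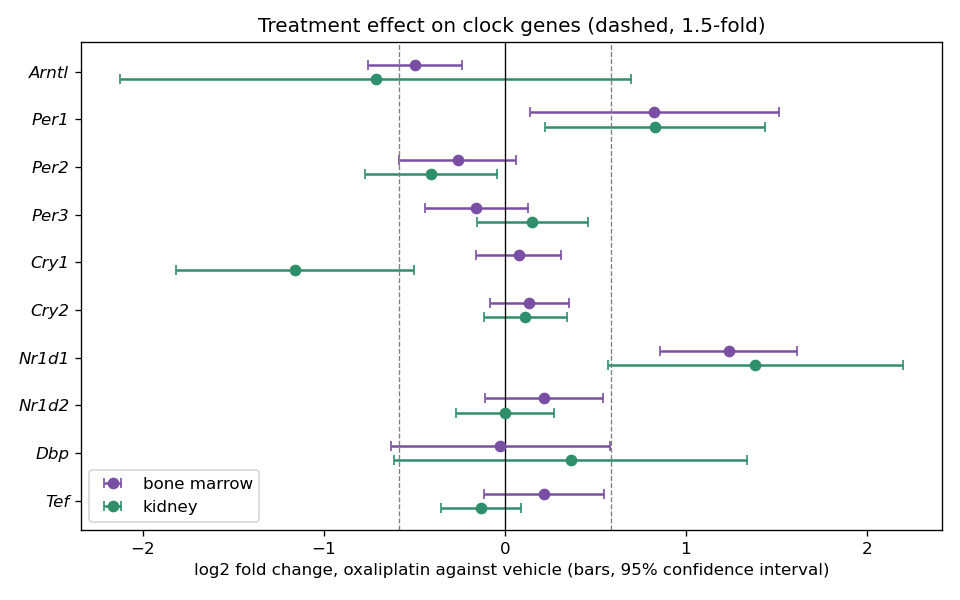
Log2 fold change of each clock gene under oxaliplatin against vehicle in marrow (purple) and kidney (green), with bars for the 95% confidence interval from edgeR and dashed lines at 1.5-fold (5 mice per group). Nr1d1 lies to the right in both tissues (1.24 and 1.38), Cry1 lies to the left in kidney alone (-1.16), and the kidney bars of Arntl and Dbp are the widest.

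Of the Period genes, which encode partners of the cryptochromes in repression, Per1 passed the test in kidney and none did in marrow. Per1, whose promoter answers to glucocorticoid and cyclic AMP signals as well as to the clock, measured 84.8, 130.2, 88.3, 75.8 and 79.1 CPM in vehicle kidneys and 99.8, 150.1, 148, 149.7 and 268 CPM in treated kidneys. Vehicle mouse 2 lay above treated mouse 1, so the groups overlapped, and treated mouse 5 stood highest. The log2 fold change was 0.83 ± 0.27 (SE, interval 0.22 to 1.44, edgeR adjusted p = 0.0465). The adjusted p lay over 0.05 when vehicle mouse 1, 3, 4 or 5 or treated mouse 2, 3, 4 or 5 was left out, where it reached 0.0535 to 0.101, and the log2 fold change was 0.59 without treated mouse 5. In marrow Per1 measured 47.1, 78.0, 52.7, 56.9 and 84.9 CPM with vehicle and 136, 85.6, 55.8, 86.8 and 202 CPM with oxaliplatin. Treated mice 1 and 5 were the highest and treated mouse 3 was within the vehicle range, and the log2 fold change of 0.83 ± 0.31 did not pass the test (edgeR adjusted p = 0.0637), though it did under 6 alternative settings given at the end. It also passed without treated mouse 3 (1.00, edgeR adjusted p = 0.0286) or mouse 4 (0.91, edgeR adjusted p = 0.0467). With a covariate of Y-linked genes the marrow log2 fold change of Per1 was 0.27 (edgeR adjusted p = 0.5). That covariate was meant to stand in for sex. It was not checked against recorded sex, since no label gives the sex of each mouse. The Y-linked level of each mouse and its balance between the groups are not reported here. With the same covariate marrow Nr1d2 had a log2 fold change of 0.42 (edgeR adjusted p = 0.047), short of 1.5-fold.

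Per2 and Per3, the other Period repressors, were not called in either tissue. Kidney Per2 was 108, 136, 129, 134 and 136 CPM with vehicle and 67.7, 73.8, 106, 111 and 127 CPM with oxaliplatin. Treated mice 1 and 2 lay well below every vehicle kidney, and the treated kidney at 106 CPM lay just below the lowest of them. The treated kidneys at 111 and 127 CPM lay among the vehicle kidneys. The log2 fold change was -0.41 (interval -0.77 to -0.04, edgeR adjusted p = 0.0876). In marrow the Per2 log2 fold change was -0.26 (interval -0.58 to 0.06, edgeR adjusted p = 0.21). With the Y-linked covariate Per2 was -0.55 in marrow (edgeR adjusted p = 0.00934) and -0.46 in kidney (edgeR adjusted p = 0.0424), both short of 1.5-fold. Per3 gave 0.15 in kidney (interval -0.16 to 0.46, edgeR adjusted p = 0.453) and -0.16 in marrow (interval -0.44 to 0.13, edgeR adjusted p = 0.395), with overlapping groups in both.

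Arntl encodes the activator BMAL1, without which the loop stops. In marrow it measured 19.3, 19.1, 14.1, 18.1 and 15.5 CPM with vehicle and 11.2, 11.5, 13.7, 11.6 and 13.0 CPM with oxaliplatin. The lowest vehicle marrow, mouse 3, lay just above the highest treated marrow, also numbered 3. The log2 fold change was -0.50 ± 0.12 (SE, interval -0.75 to -0.24, edgeR adjusted p = 0.00608), and at any size of change 33.1% of genes passed in marrow. In kidney Arntl measured 2.09, 1.87, 4.92, 6.44 and 10.4 CPM in vehicle mice 1 to 5 and 6.60, 3.03, 1.26, 1.23 and 3.48 CPM in oxaliplatin mice 1 to 5. Both kidney groups held mice with low and mice with high Arntl, and the log2 fold change of -0.71 ± 0.62 (SE, interval -2.13 to 0.70, edgeR adjusted p = 0.427) allows a fall, no change or a rise.

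Dbp and Tef encode activators of the PAR bZIP family that carry the rhythm to genes with D-boxes. Kidney Dbp measured 174, 140.5, 88.4, 59.9 and 40.6 CPM with vehicle and 100.4, 167, 174, 128 and 79.1 CPM with oxaliplatin. Vehicle mice 4 and 5 lay below all treated kidneys and the rest were mixed, with a log2 fold change of 0.36 (interval -0.61 to 1.34, edgeR adjusted p = 0.564). In marrow Dbp measured 12.2, 12.9, 9.61, 13.1 and 13.1 CPM with vehicle and 13.9, 7.74, 13.7, 19.2 and 5.28 CPM with oxaliplatin. The treated marrows reached both below and above the vehicle range, and the log2 fold change was -0.025 (interval -0.63 to 0.58, edgeR adjusted p = 0.958), a sign that turned with other scalings. Tef ran from 348 to 510.1 CPM in vehicle kidney and from 333 to 441 CPM with oxaliplatin, a log2 fold change of -0.13 (interval -0.35 to 0.09, edgeR adjusted p = 0.363), and in marrow it was 0.22 (interval -0.11 to 0.55, edgeR adjusted p = 0.308).

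The spread between mice of a group set kidney apart from marrow for these genes. In vehicle kidney the highest mouse exceeded the lowest by 5.55-fold for Arntl, 4.29-fold for Dbp and 3.92-fold for Nr1d1. The SD of log2 CPM was 1.04 for Arntl, 0.86 for Dbp and 0.77 for Nr1d1, larger than in 99.9%, 99.8% and 99.8% of the 13635 genes whose mean log2 CPM reached 1. All 10 clock genes had an SD over the median of all genes in vehicle kidney, with a median SD of 0.28 against 0.13, and 3 were among the top 5%. In oxaliplatin kidney 9 of 10 were over the median and 4 were among the top 5%: Arntl, Per1, Cry1 and Dbp. In marrow none of the 10 was among the top 5% in either group, and 6 of 10 with vehicle and 7 of 10 with oxaliplatin were over the median. Vehicle marrow Arntl ranged over 1.37-fold and vehicle marrow Dbp over the same 1.37-fold.

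Across the kidneys several clock genes varied opposite to Arntl. Vehicle mice 1 and 2, with the lowest Arntl, had the highest Dbp, Nr1d1, Nr1d2, Per3, Cry2 and Tef of their group, and vehicle mouse 5, with the highest Arntl, had the lowest Dbp, Nr1d1, Nr1d2, Per3 and Tef. Among treated kidneys, mice 3 and 4, lowest in Arntl, had the highest Tef, and mouse 1, highest in Arntl, had the lowest Tef. With each group's mean subtracted, log2 CPM of Arntl and Tef gave Pearson's r = -0.93 and Spearman's rho = -0.89 over 10 mice (two-sided permutation within groups, p = 0.00059 and 0.00203, adjusted over 18 relations to 0.0106 and 0.0183), and r was -0.96 once the 2 mice most distant from the Arntl median were dropped. Arntl and Nr1d2 gave r = -0.91 and rho = -0.93 (permutation p = 0.00253 and 0.00112, adjusted 0.0228 and 0.0183), and r = -0.86 without 2 mice. Arntl and Per3 gave r = -0.84 and rho = -0.75 (permutation p = 0.00785 and 0.0261, adjusted 0.0471 and 0.118), so that the rank correlation did not pass the adjustment, and r = -0.82 without 2 mice. These 3 of the 18 relations, 9 per tissue, had an adjusted p under 0.05 for Pearson's r.

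Dbp and Nr1d1 stood lower in that order. Arntl and Dbp gave r = -0.81 and rho = -0.77 in kidney (permutation p = 0.0118 and 0.0188, adjusted 0.0531 and 0.113), with r = -0.84 without 2 mice. Arntl and Nr1d1 gave r = -0.58 and rho = -0.44 (permutation p = 0.103 and 0.234, adjusted 0.37 and 0.535), with r = -0.62 without 2 mice. Treated kidney 1 had the highest Arntl of its group and yet 147 CPM of Nr1d1, above every vehicle kidney. For Arntl and Cry1 r was 0.12 and rho 0.25 (permutation p = 0.802 and 0.516, adjusted 0.927 and 0.687), with r = 0.19 without 2 mice. These pooled values for Nr1d1 and Cry1 join groups that looked unlike. Among vehicle kidneys, mice 3, 4 and 5 had in turn more Arntl, more Cry1 and less Nr1d1 than mice 1 and 2. In treated kidneys neither gene followed the order of Arntl in this way. With 5 mice a group no correlation is given within groups, and the difference between the groups was not tested. In marrow no relation with Arntl passed, the farthest from 0 by Pearson's r being Per2 with r = -0.40 and rho = -0.54 (permutation p = 0.209 and 0.0978, adjusted 0.627 and 0.352), and r = -0.33 without 2 mice.

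**Figure D3:**
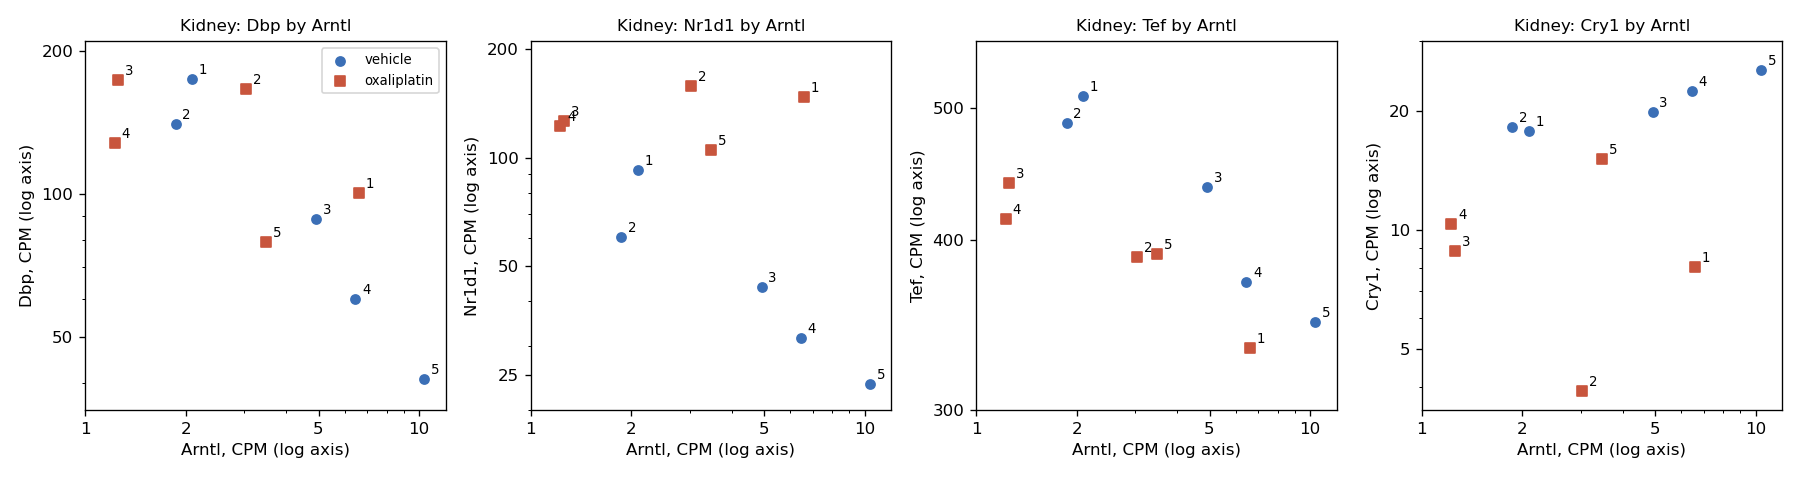
Dbp, Nr1d1, Tef and Cry1 in each kidney against Arntl, all in CPM on log axes, with each mouse numbered (5 vehicle, 5 oxaliplatin). Tef tends to fall as Arntl rises in both groups, and Dbp does so among vehicle kidneys, with a looser order among treated kidneys. Treated kidneys lie above all vehicle kidneys for Nr1d1 (105 to 158 against 23.7 to 92.6 CPM). They lie below all vehicle kidneys for Cry1 (3.91 to 15.1 against 17.7 to 25.4 CPM).

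Because kidneys of the same group differed this much, the treatment effect was also fitted with the log2 CPM of Dbp or of Arntl in each mouse as a covariate, a choice made after the values were seen. With Dbp in the fit the kidney log2 fold change of Nr1d1 was 1.18 (edgeR adjusted p = 0.000265) and that of Cry1 was -0.99 (edgeR adjusted p = 0.0141). With Arntl in the fit Nr1d1 was 1.30 (edgeR adjusted p = 0.0211) and Cry1 -1.09 (edgeR adjusted p = 0.0446). Per1 was not called in either of these fits, with edgeR adjusted p = 0.0781 and 0.0963. In marrow Nr1d1 was 1.29 with Dbp (edgeR adjusted p = 1.58e-05) and 1.57 with Arntl (edgeR adjusted p = 0.0255), although Arntl did not overlap between the marrow groups, so that covariate and treatment can hardly be told apart there. Since the hour of collection is not given, a difference in clock phase between the groups and an effect of oxaliplatin on these genes cannot be told apart.

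The level of Nr1d1 relative to Dbp, both of them targets of ARNTL, was compared within each mouse, a ratio chosen after the values were seen and given without a test. In kidney log2 of Nr1d1 over Dbp CPM was -0.91, -1.22, -1.01, -0.92 and -0.78 with vehicle and 0.55, -0.08, -0.47, -0.07 and 0.41 with oxaliplatin. In marrow it was 0.03, -0.18, -0.27, 0.10 and -0.45 with vehicle and 1.19, 1.58, 0.97, 0.64 and 1.83 with oxaliplatin. The ratio of every treated mouse lay above that of every vehicle mouse of its tissue. Nr1d1 alone was already apart between the groups in both tissues and Dbp was not called, so this separation is not independent of that of Nr1d1. Vehicle kidneys, which spread widely for each gene alone, lay close together for the ratio.

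**Figure D4:**
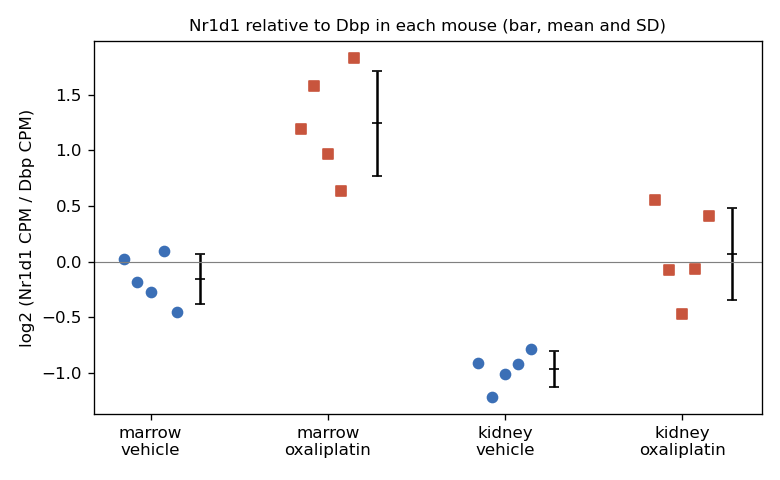
Log2 of the ratio of Nr1d1 to Dbp CPM in each mouse of the 4 groups, with the mean and SD of 5 mice beside the points. Vehicle kidneys lie between -1.22 and -0.78 and treated kidneys between -0.47 and 0.55, and vehicle marrows lie between -0.45 and 0.10 and treated marrows between 0.64 and 1.83.

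In marrow, markers of other cells moved with the treatment. Of all genes tested in marrow, 11.6% were called higher and 11.8% lower, the shares to set beside the counts below. The summed level of 7 adipocyte genes was 39.6, 38.3, 21.9, 51.6 and 20.3 CPM with vehicle and 1733, 613, 1589, 1709 and 258 CPM with oxaliplatin, and 7 of 7 were called higher. The marrows with more adipocyte RNA had more Nr1d1 in each group, apart from the order of vehicle mice 3 and 5. Treated mice 1 and 4 were the highest for both, treated mouse 5 the lowest, and vehicle mice 3 and 5 the lowest. Stromal genes, 2 of 6 called higher, summed to 1496 to 1919 CPM with vehicle. With oxaliplatin they summed to 2691, 2185, 2207, 2561 and 1617 CPM, the same order of mice as for Nr1d1. Vehicle mice 1 and 4 were also the highest and vehicle mouse 3 the lowest for both stromal RNA and Nr1d1. The stromal genes, all named here, did not move alike. Col3a1 (1.55 on the log2 scale) and Dcn (0.98) were called higher. Cxcl12 (0.49) and Pdgfra (0.55) rose and Lepr (-0.49) fell, each with an edgeR adjusted p under 0.05 but short of 1.5-fold. Col1a1 changed by 0.08 (edgeR adjusted p = 0.898). Erythroid and B-cell genes were called lower, 5 of 5 in each list, with erythroid sums of 22441 to 39834 CPM with vehicle and 2669 to 7244 CPM with oxaliplatin. Skeletal muscle genes summed to 2.12 to 83.3 CPM with vehicle and 34.4 to 661 CPM with oxaliplatin, with 3 of 5 called higher. Macrophage genes, 3 of 5 called higher, summed to 632 to 843 CPM with vehicle and 791 to 1943 CPM with oxaliplatin, and 2 of 3 endothelial genes were called higher. Treated marrows 3 and 4 stood apart in neutrophil RNA, at 7433 and 8677 CPM, against 14324 to 19287 CPM in the other marrows. In kidney the adipocyte sum was 1.99 to 15.1 CPM with vehicle and 23.6 to 109 CPM with oxaliplatin, with 4 of 5 tested genes called higher. Of all genes tested in kidney, 7.68% were called higher and 3.81% lower, and the groups did not overlap for 20.7%. Other kidney sums were also apart between the groups. Podocyte genes (2 of 2 called higher) summed to 50.3 to 58.8 CPM with vehicle and 92.7 to 115 CPM with oxaliplatin, endothelial genes (2 of 3 higher) to 105 to 111 and 136 to 189 CPM, and stromal genes (4 of 6 higher) to 246 to 281 and 308 to 437 CPM. Distal nephron genes, 0 of 4 called, summed to 4453 to 5274 and 5524 to 5996 CPM. Tubule injury genes (1 of 2 called higher) summed to 1.85 to 2.75 CPM with vehicle and 3.87 to 10.7 CPM with oxaliplatin. B-cell genes, of which 1 of 5 was tested and 0 called, summed to 1.73 to 3.06 and 0.438 to 1.29 CPM. Macrophage genes, 3 of 5 called lower and 1 higher, summed to 89.0 to 112 CPM with vehicle and 50.2 to 61.6 CPM with oxaliplatin. The part of these cells in the Nr1d1, Arntl and Cry1 values was not tested, and in bulk tissue fewer cells of a type and less RNA per cell cannot be told apart.

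**Figure D5:**
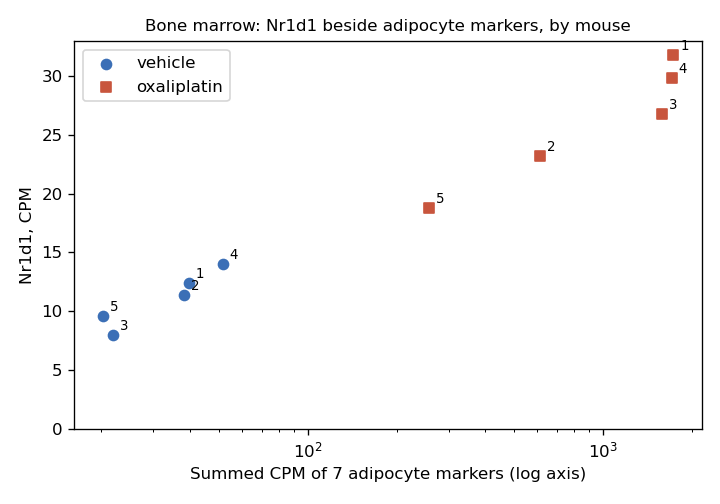
Nr1d1 in CPM against the summed CPM of 7 adipocyte markers (log axis) in each marrow, with each mouse numbered (5 vehicle, 5 oxaliplatin). Vehicle marrows lie at 20.3 to 51.6 CPM of markers and 7.97 to 14.0 CPM of Nr1d1, and treated marrows at 258 to 1733 and 18.8 to 31.8 CPM.

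The genes whose within-group pattern was most like that of Nr1d1 in marrow, by Pearson's r over 10 mice with group means subtracted, were Smoc1 (0.95), Ptx3 (0.94) and Plin1 (0.94). Plin1, which encodes a coat protein of fat droplets, is among the 7 adipocyte markers. For marrow Arntl they were Tefm (0.90), H2az2 (0.90) and 2610008E11Rik (0.89). In kidney they were Tfcp2 (0.96), Pars2 (0.96) and Mboat1 (0.93) for Nr1d1 and Irf2bpl (0.96), Ptbp1 (0.95) and Nrg1 (0.95) for Arntl. These are the top 3 of 14639 genes in marrow and of 13625 in kidney, and the mice share their depth and cell makeup.

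Levels between genes were compared per kilobase of exon. In vehicle kidney the order was Tef at 54.8 ± 8.94 CPM per kb (SD, n = 5), Dbp at 33.7 ± 18.6, Per2 at 22.0 ± 2.01, Nr1d2 at 20.3 ± 3.75, Nr1d1 at 16.4 ± 8.89, Per1 at 16.3 ± 3.93, Per3 at 8.57 ± 1.74, Cry2 at 7.52 ± 0.960, Cry1 at 6.20 ± 0.957 and Arntl at 0.683 ± 0.466. Neighbours from Tef to Per1 and from Per3 to Cry1 differed by less than their SDs summed, whereas Per1 and Per3, and Cry1 and Arntl, differed by more. In vehicle marrow the CPM per kb was highest for Per1 at 11.3 ± 2.94, then Cry1 at 7.21 ± 0.564, Per2 at 5.49 ± 0.641, Tef at 4.69 ± 0.581, Per3 at 4.23 ± 0.190, Dbp at 4.07 ± 0.496, Nr1d2 at 3.86 ± 0.349, Cry2 at 3.74 ± 0.311, Nr1d1 at 3.59 ± 0.765 and Arntl at 2.29 ± 0.306. The neighbours from Per2 to Nr1d1 lay within their summed SDs in marrow.

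Between the vehicle groups, 9 of the 10 clock genes differed by tissue, against 72.9% of the 24321 genes tested. Tef was higher in kidney by 3.98 ± 0.16 on the log2 scale (SE, edgeR adjusted p = 1.49e-16), Dbp by 3.48, Nr1d2 by 2.82, Nr1d1 by 2.62, Per2 by 2.43, Per3 by 1.45, Cry2 by 1.44 and Per1 by 0.95. With library size alone the difference of Per1 was 0.53 (edgeR adjusted p = 0.111), which left 8 of the 10. Arntl was lower in kidney, with a log2 difference of -1.32 ± 0.40 (SE, edgeR adjusted p = 0.00524). Cry1 differed by 0.21 (interval -0.20 to 0.63, edgeR adjusted p = 0.332), a value whose sign turned with library size alone. No label says whether same-numbered marrow and kidney libraries came from 1 mouse, so this contrast and the interaction treat them as separate animals.

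The 22 other genes of the clock pathway, listed by role, were partners of ARNTL and ROR receptors, bZIP and bHLH repressors, kinases and ubiquitin ligases, and outputs. In marrow 7 of 21 tested were called, 5 higher and 2 lower, with a median log2 fold change of 0.22. Of all genes in marrow 23.3% were called, 11.6% higher and 11.8% lower, so the lower share lay near that of all genes. Among the activators, Npas2, which can replace CLOCK, rose by 2.46 on the log2 scale (edgeR adjusted p = 3.61e-06), from 1.11 to 1.54 CPM with vehicle to 4.14 to 8.46 CPM with oxaliplatin. Rora, an activator of Arntl, rose by 1.06 (edgeR adjusted p = 0.00021). Clock rose by 0.64 in marrow (edgeR adjusted p = 0.00038). The repressor Bhlhe40 rose by 0.59 (edgeR adjusted p = 0.00106), which at 1.501-fold only just passed the fold threshold. The ligase gene Fbxl21 rose by 1.15 (interval 0.35 to 1.94, edgeR adjusted p = 0.0291), with overlapping groups. Btrc, which encodes a ubiquitin ligase subunit that marks PER proteins for destruction, fell by 2.28 (edgeR adjusted p = 2.83e-08), from 121 to 159 CPM with vehicle to 26.1 to 32.7 CPM with oxaliplatin. Wee1, a cell cycle kinase and clock output, fell by 0.68.

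In kidney 1 of the 22 was called, against 11.5% of all genes, so the share was not above that of all genes, and the median log2 fold change was -0.015. Bhlhe41, a bHLH repressor also known as Dec2, rose by 0.77 (edgeR adjusted p = 0.0159), with overlapping groups. The interaction between tissue and treatment was -2.49 for Npas2 (edgeR adjusted p = 0.000829) and 2.25 for Btrc (edgeR adjusted p = 4.95e-11).

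Nfil3, Npas2 and Ciart, chosen after their values were seen, varied among vehicle kidneys as Arntl and Dbp did. Nfil3 encodes a repressor at D-boxes, and in vehicle kidneys it measured 1.68, 2.71, 16.0, 18.5 and 21.1 CPM. Npas2 measured 1.83, 2.44, 3.07, 4.63 and 6.24 CPM in the same mice. Ciart, a repressor of the ARNTL pair, measured 15.1, 22.3, 11.4, 5.68 and 4.70 CPM. Mice 1 and 2 were the lowest for Nfil3 and Npas2 and the highest for Ciart. None of these 3 was called in kidney under oxaliplatin, with edgeR adjusted p = 0.225 for Nfil3, 0.983 for Npas2 and 0.223 for Ciart.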

How the data were processed

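RNA was measured in 20 libraries, 5 for each of vehicle and oxaliplatin in bone marrow and kidney, and samples were grouped by their titles. For each tissue the authors deposited a table of unnormalized gene counts, described in their methods as uniquely aligned, unambiguous reads after alignment with STAR to Ensembl release 101. The submitters' processing notes name bcl2fastq, STAR, Subread, featureCounts and Salmon, and the methods name Partek Flow, so the counter and the use of strand are not settled. The library chemistry is also given in different ways, as ribosomal RNA removal with random hexamers and as a SMARTer kit. Reads of antisense partners therefore cannot be told apart.

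Each table's 55774 lines came to 55486 genes once repeated identifiers and an incomplete line were dropped. In edgeR 4.0.16, run in R 4.3.3 with limma 3.58.1, the filterByExpr minimum was 10 counts, scaling was by TMM, and the quasi-likelihood test was the robust one, two-sided, of treatment alone. Calls needed a Benjamini-Hochberg adjusted p under 0.05 over all tested genes and a change beyond 1.5-fold. SEs and 95% confidence intervals come from the same test. The interaction, called at an adjusted p under 0.05, and the vehicle contrast between tissues came from 1 fit of all 20 libraries. Log2 CPM used a prior count of 2. Relations with Arntl used 100000 shuffles within groups. Same-group libraries differed by more than sampling noise, the lowest chi-square per degree of freedom over 40 pairs being 7.51. The edgeR p-values set each effect against the spread between these libraries, and the permutation p-values set each relation against the shuffles.

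The 10 genes, the pathway lists and the marker lists were chosen with earlier results of these data known, and 1 gene of the clock pathway is not reported here. Other genes were named only as called members of a list, at most the 3 largest changes per list and tissue, or as the 3 genes most like Nr1d1 or Arntl, with exceptions said in the text, where each role of the clock pathway counts as a list. Positions and exon lengths came from GENCODE M21 on GRCm38. Alternatives were DESeq2 1.42.0, other scalings and filters, a replicate block, a Y-linked covariate, other thresholds, a fit of all libraries, each mouse left out and, added after the data were seen, covariates of Dbp and Arntl. The steps were tested on simulated data. Plots were made in matplotlib 3.10.9 under Python 3.11.15.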

Additional observations from a re-analysis of the deposited data

Results flagged for a closer look

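Of 40 groups of 5 mice (10 genes in 4 groups), 5 held a mouse whose gap to its nearest neighbour was over 0.71 of the group's range, and chance alone gives that in about 1 in 20 groups. In vehicle marrow, Cry1 was lowest in mouse 1 at 20.9 CPM, Cry2 was highest in mouse 4 at 27.1 CPM, and Dbp was lowest in mouse 3 at 9.61 CPM. In vehicle kidney, Per1 was highest in mouse 2 at 130.2 CPM, and Per2 was lowest in mouse 1 at 108 CPM. The response of Cry1 differed between the tissues, with an interaction of -1.30 on the log2 scale (edgeR adjusted p = 0.00138), since its log2 fold change was -1.16 in kidney and 0.08 in marrow.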

How the results depend on the processing

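In marrow the count of clock genes called went from 1 to 2, with Per1 added, under DESeq2, RLE size factors, library size alone, hemoglobin genes left out, the replicate block and the fit of all 20 libraries, and to 2, with Arntl added, with no fold threshold. Leaving out each mouse gave 1 to 2 in marrow (2 without oxaliplatin mouse 3 or 4), 1 to 3 in kidney (1 without vehicle mouse 3, when Nr1d1 and Per1 were lost) and 1 to 2 for the interaction (2 without marrow oxaliplatin mouse 5, with Tef at an edgeR adjusted p of 0.0318). Nr1d1 in marrow and Cry1 in kidney stayed called under every setting run, with log2 fold changes of 1.14 to 1.37 and -1.40 to -0.97 when a mouse was left out. The other clock pathway genes called in marrow were 4 to 7 when a mouse was left out (4 without oxaliplatin mouse 1), 11 with no fold threshold, 4 beyond 2-fold and 2 with the Arntl covariate. In kidney they were 2 with DESeq2, library size alone, at least 10 counts in every sample and the Dbp or Arntl covariate, 4 with no fold threshold, 0 beyond 2-fold, and 1 to 2 when a mouse was left out (2 without oxaliplatin mouse 2 or 3). Over all genes, calls were 3231 in marrow and 941 in kidney beyond 2-fold, 5679 in kidney with no fold threshold, 1490 in marrow with the Arntl covariate, and 10089 between the vehicle tissues with at least 10 counts in every sample, where fewer genes were tested.

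Small log2 fold changes that had not passed the test changed sign. In marrow Dbp was 0.018 with DESeq2, 0.018 with RLE, 0.13 with library size alone, 0.010 without hemoglobin genes, 0.041 in the fit of all libraries, 0.47 with the Y-linked covariate, and -0.26 to 0.20 when a mouse was left out. With the Y-linked covariate marrow Per3 was 0.031 and Cry1 -0.045, and with the Arntl covariate Cry1 was -0.044. In kidney Nr1d2 was -0.0064 with DESeq2, -0.0065 with RLE, -0.011 with the Y-linked covariate, -0.0033 in the fit of all libraries, -0.14 with the Dbp or the Arntl covariate, and -0.075 to 0.068 when a mouse was left out, and kidney Arntl was 0.063 with the Dbp covariate. The interaction of Per1 was 0.0011 with library size alone, 0.053 with at least 10 counts in every sample, 0.0057 with the replicate block and -0.28 to 0.23 when a mouse was left out, that of Cry2 was 0.023 with at least 10 counts, and those of Nr1d1 and Arntl ranged from -0.10 to 0.43 and from -0.74 to 0.15. The vehicle difference of Cry1 was -0.21 with library size alone and -0.017 with at least 10 counts. With library size alone the relation of Arntl in marrow was 0.12 with Per3, 0.12 with Dbp and 0.0052 with Tef. Library size alone moved the median of all genes by 0.15 in marrow, 0.13 in kidney and -0.42 between the vehicle tissues, and the share of calls that were higher from 49.6% to 63.4% in marrow and from 66.8% to 82.7% in kidney. Causes were not tested.

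Over all genes the replicate numbers showed no clear pairing: deviations of same-numbered mice correlated at -0.15 to 0.08 in kidney and -0.12 to 0.23 in marrow. In each tissue 1 of 5 mice matched its own number best. Correlations over all genes cannot show whether a few genes share an order by number, and the order of collection is not given. Among vehicle kidneys Nr1d1 fell and Cry1 rose at each step from mouse 1 to mouse 5. Treated kidneys held the same order for both genes from mouse 2 to mouse 5, with mouse 1 out of it. Per2 rose at each step from mouse 1 to mouse 5 in treated kidneys but not in vehicle kidneys. These orders by number were not tested. Marrow and kidney libraries of the same number correlated at -0.082 to 0.21 with oxaliplatin (2 of 5 over 0.1) and -0.094 to 0.048 with vehicle (0 of 5). With the replicate block the kidney log2 fold change had an edgeR adjusted p of 0.0635 for Per1, 0.000603 for Cry1 (-1.25), 0.00319 for Nr1d1 (1.53) and 0.0108 for Per2 (-0.44, short of 1.5-fold). Arntl in kidney, at 35 to 256 counts, was the least deeply counted of the 10, and the width of the Arntl and Dbp intervals there follows the spread between mice.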

Other observations

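Glucocorticoid-responsive and immediate-early genes, which like Per1 respond to hormones or acute signals, were listed beside it. Of all genes, 11.6% were called higher in marrow and 7.68% in kidney. In marrow 5 of 7 glucocorticoid-responsive genes were called higher, led by Errfi1 (2.05 on the log2 scale, edgeR adjusted p = 5.06e-05), Klf9 (1.43, edgeR adjusted p = 7.5e-06) and Fkbp5 (0.96, edgeR adjusted p = 0.0267), against 0 of 7 in kidney, where Errfi1 had a log2 fold change of -0.49 (edgeR adjusted p = 0.00101), short of 1.5-fold. The interaction passed the test for Errfi1 (-2.59, edgeR adjusted p = 1.52e-07) and Klf9 (-1.47, edgeR adjusted p = 5.9e-07) but not for Fkbp5 (-0.89, edgeR adjusted p = 0.0883), Sgk1 (-0.62, edgeR adjusted p = 0.216) or Zbtb16 (0.024, edgeR adjusted p = 0.993), the other 2 called in marrow. Zbtb16 had a log2 fold change of 0.88 in marrow and 0.95 in kidney (edgeR adjusted p = 0.0178 and 0.179). The summed level of the 7 genes was 243 to 362 CPM in vehicle marrows, and treated marrows 3 and 4, at 283 and 360.3 CPM, lay within that range.

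Of 6 immediate-early genes, 3 were called higher in marrow, Egr1 (1.42, edgeR adjusted p = 0.000145), Atf3 (1.20, edgeR adjusted p = 0.00114) and Fos (0.88, edgeR adjusted p = 0.00868). In kidney 2 were called higher, Nr4a1 (2.05, edgeR adjusted p = 0.0292) and Junb (0.85, edgeR adjusted p = 0.042), both with overlapping groups. Of 5 transport genes timed by the clock in kidney (Scnn1a, Avpr2, Aqp2, Aqp4 and Slc9a3), 4 were tested in kidney and 0 were called by edgeR, against 11.5% of all genes. At any fold 2 of the 4 passed, Scnn1a (0.42, edgeR adjusted p = 0.00582, groups apart) and Aqp2 (0.36, edgeR adjusted p = 0.0346, groups overlapping), as did 29.4% of all genes.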
